A study of Mus musculus with 6 samples.

Results

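*Lyz2* (NCBI Gene 17105) and *Lyz1* (NCBI Gene 17110), the paralogous lysozyme genes that lie side by side on mouse chromosome 10, were examined in injured Achilles tendon. The pair was taken by symbol, 2 of 18099 genes, because *Lyz2* is the gene into which Cre recombinase was placed in one group of mice and *Lyz1* is its nearest relative. The choice was made with their difference between the groups known, so that difference is given as a description, without a test. Whole tendon tissue was sequenced from 6 neonatal mice 7 days after the tendon was cut, 3 of them *Lysm-Cre; Ampkα1fl/fl* mice and 3 littermate controls. Both groups carried the floxed *Ampkα1* alleles, and only the *Lysm-Cre; Ampkα1fl/fl* mice carried Cre, which is made from the lysozyme M (*Lyz2*) locus and is active in monocytes, macrophages and granulocytes. Controls with Cre but without floxed alleles were not analysed here, so the effect of the Cre allele and that of *Ampkα1* deletion cannot be told apart. The sources do not say whether 1 or both *Lyz2* alleles carried Cre.

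Lysozyme cleaves the peptidoglycan of bacterial cell walls. Lysozyme M, encoded by *Lyz2*, is made by macrophages and granulocytes, and lysozyme P, encoded by *Lyz1*, is known above all from the Paneth cells of the small intestine. In the *LysM-Cre* allele the Cre coding sequence sits at the start codon in the first coding exon of *Lyz2*, so that this allele makes Cre under the *Lyz2* promoter in place of lysozyme M. *Lyz1* is not altered by design.

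In the RefSeq annotation of GRCm38.p6 both genes lie on the minus strand, *Lyz2* at chr10:117277541-117282272 and *Lyz1* at chr10:117287795-117292868, with 5522 bases between them. Each has 4 exons in GENCODE release M21. The window from 250 bases before to 50 bases after each transcription start (RefSeq, GRCm38.p6) is shown because Cre is driven from the first of these windows. Capitals mark the bases that differ between the genes in the alignment, and the strand is that of the transcript. The windows are chr10:117282223-117282522 for *Lyz2* and chr10:117292819-117293118 for *Lyz1*.
Lyz2 promoter: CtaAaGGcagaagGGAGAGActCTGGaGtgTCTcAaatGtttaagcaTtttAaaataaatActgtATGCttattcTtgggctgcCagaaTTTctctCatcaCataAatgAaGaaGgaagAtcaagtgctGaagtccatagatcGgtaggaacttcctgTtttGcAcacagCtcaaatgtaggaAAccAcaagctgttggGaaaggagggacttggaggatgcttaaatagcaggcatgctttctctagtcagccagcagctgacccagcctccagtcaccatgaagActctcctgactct
Lyz1 promoter: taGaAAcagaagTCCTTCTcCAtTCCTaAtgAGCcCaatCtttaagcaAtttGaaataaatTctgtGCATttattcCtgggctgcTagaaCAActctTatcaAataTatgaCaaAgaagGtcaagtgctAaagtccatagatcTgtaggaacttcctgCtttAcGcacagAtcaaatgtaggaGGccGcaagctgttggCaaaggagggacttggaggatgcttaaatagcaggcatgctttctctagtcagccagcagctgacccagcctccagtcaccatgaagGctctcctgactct

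The windows were alike mainly near the start. Of 302 aligned positions 249 were identical (82.5%), with 49 mismatches and 4 gaps. Over the 100 bases nearest the start the identity was 92.0%, and over the farther 150 bases it was 71.1%. The first 50 transcribed bases differed at 1 position. On both strands, CAGGAAGT, a core recognised by ETS factors such as PU.1, matched once in each window, on the minus strand at position -100 from the start, and 3.33% of 32851 promoter windows held it. TTAAATAG, letters picked after the windows had been read, matched once in each at position -28 and in 0.871% of all windows. TTGCNNAA, which resembles the sites of C/EBP factors, matched only the *Lyz1* window (position -209) and 10.8% of all windows. GAGGAA and TATAAA matched neither window and 28.3% and 13.6% of all windows. None of these matches overlapped another.

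The first 150 coding bases of each gene (GENCODE release M21, GRCm38) are shown because the assignment of a read to one gene or the other rests on such differences, again in capitals. The transcripts span chr10:117277331-117282321 for *Lyz2* and chr10:117287797-117292868 for *Lyz1*, and the start codons begin at 117282242 and 117292838.
Lyz2 coding bases 1 to 150: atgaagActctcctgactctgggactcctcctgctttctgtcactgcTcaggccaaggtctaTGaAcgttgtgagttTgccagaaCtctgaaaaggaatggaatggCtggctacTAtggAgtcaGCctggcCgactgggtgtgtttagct
Lyz1 coding bases 1 to 150: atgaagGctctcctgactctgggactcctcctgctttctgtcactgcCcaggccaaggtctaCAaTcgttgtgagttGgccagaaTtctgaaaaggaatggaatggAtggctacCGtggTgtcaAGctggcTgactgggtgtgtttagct

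Of the 447 coding bases 425 were identical (95.1%), and 14 of the 22 differences fell in the 150 bases shown. The longest identical run was 118 bases. Over the whole transcripts, 1316 bases for *Lyz2* and 1263 bases for *Lyz1*, the identity was 92.0%. Of all 50-base windows of the *Lyz2* transcript, 195 of 1267 (15.4%) occurred letter for letter in *Lyz1*. At 100 bases this fell to 24 of 1217 (1.97%), and at 150 bases to 0 of 1167. No 50-base window of either gene occurred in any other gene among 141767 annotated transcripts. The read length and the treatment of reads that match both genes are not given in the sources used here, so the split of reads between the genes is uncertain to that extent.

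**Figure D1:**
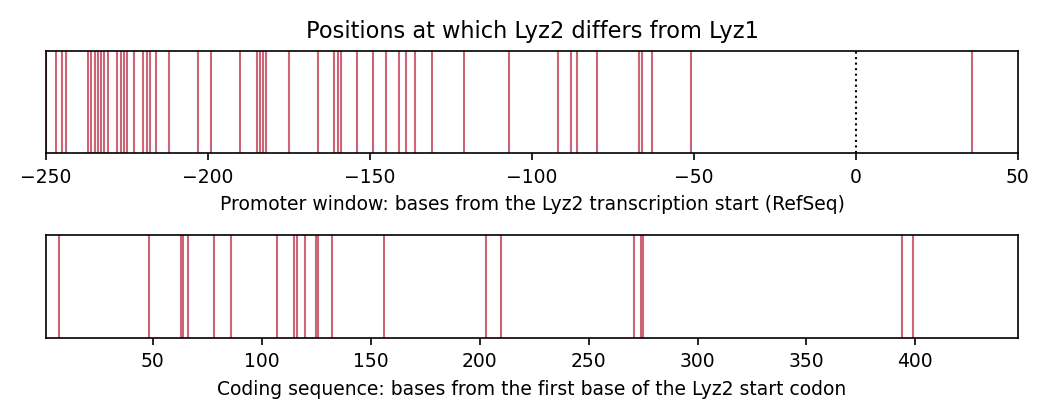
Positions at which *Lyz2* differs from *Lyz1*, drawn as vertical lines along the promoter window (top, in bases from the transcription start) and along the coding sequence (bottom, in bases from the start codon). The differences crowd in the part of the promoter window farthest from the start, and 14 of the 22 coding differences lie in the first 150 bases.

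Transcripts of *Lyz2* were almost absent from the *Lysm-Cre; Ampkα1fl/fl* tendons, whereas those of *Lyz1* were still present at a lower level. *Lyz2* was counted at 7378 reads in control 1, 7778 in control 2 and 7372 in control 3, against 9, 15 and 8 reads in *Lysm-Cre; Ampkα1fl/fl* mice 1, 2 and 3. The exact 95% Poisson intervals of these last values, which cover counting error only, were 4.12 to 17.1, 8.4 to 24.7 and 3.45 to 15.8 reads. All 3 controls thus lay close together and far above every *Lysm-Cre; Ampkα1fl/fl* library.

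As CPM, read counts scaled to library size with TMM factors, *Lyz2* was 407 ± 17.4 (SD, n = 3) in the controls and 0.571 ± 0.209 (SD, n = 3) in the *Lysm-Cre; Ampkα1fl/fl* mice. The level that remained was 0.14% of the control mean, with 0.115%, 0.2% and 0.106% in the single mice. This is a 712-fold lower mean and a log2 fold change of -9.46 in edgeR (standard error 0.17, calculated back from the F statistic). DESeq2 gave -9.47 with a standard error of 0.26, so the edgeR value may understate the error at these low counts. Among the 14261 genes with enough reads to be compared, which include both lysozyme genes, the edgeR value of *Lyz2* was the second lowest log2 fold change (rank 2). *Gm21451* alone was lower, with 512, 453 and 582 reads in the controls and 0 in every *Lysm-Cre; Ampkα1fl/fl* library, against which a fitted fold change depends on the prior count.

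*Lyz1* was counted at 362, 384 and 347 reads in the controls and at 323, 195 and 197 reads in *Lysm-Cre; Ampkα1fl/fl* mice 1, 2 and 3. In CPM these were 19.2, 21 and 19 in the controls and 16.8, 10.5 and 10.6 in the *Lysm-Cre; Ampkα1fl/fl* mice. *Lysm-Cre; Ampkα1fl/fl* mouse 1 lay just below the controls, and the other 2 lay well below it. The means were 19.7 ± 1.09 and 12.7 ± 3.61 CPM (SD, n = 3 each), 64.3% of the control level or a log2 fold change of -0.64 (standard error 0.19). Single *Lysm-Cre; Ampkα1fl/fl* mice reached 85.4%, 53.5% and 54% of the control mean.

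The groups did not overlap for *Lyz1* or for *Lyz2*, both being lower in every *Lysm-Cre; Ampkα1fl/fl* library. The same lack of overlap in this direction was found for 11.4% of all genes compared (20.4% in either direction), and since the pair was chosen on this contrast nothing is read from it. The spread between mice was wider in the *Lysm-Cre; Ampkα1fl/fl* group for both genes, with a coefficient of variation of 28.5% against 5.55% for *Lyz1* and 36.6% against 4.28% for *Lyz2*. Without *Lysm-Cre; Ampkα1fl/fl* mouse 1 the *Lyz1* level was 53.7% of control and the log2 fold change -0.89. From lysozyme counts in whole tissue alone, fewer cells that make lysozyme and less lysozyme RNA per cell cannot be told apart. Both genes are set beside macrophage genes further below.

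**Figure D2:**
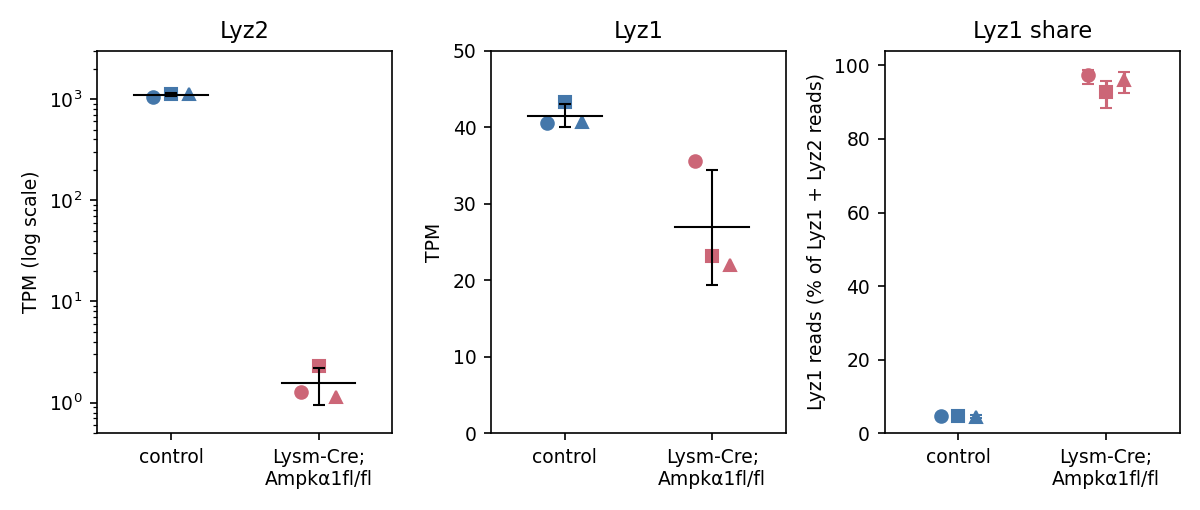
*Lyz2* (left, TPM on a log scale) and *Lyz1* (middle, TPM on a linear scale) in each library, and the share of *Lyz1* in the reads of both genes (right, in %). Circles, squares and triangles are mice 1, 2 and 3 of each group, horizontal lines with bars are means with SD, and bars in the right panel are exact 95% binomial intervals. *Lyz2* drops from 1099.7 to 1.58 TPM, *Lyz1* from 41.6 to 26.9 TPM, and the *Lyz1* share rises from 4.63% to 95.4%.

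Levels of the 2 genes were compared in TPM, a unit that corrects for transcript length. *Lyz2* was at 1059, 1127 and 1113 TPM in the controls and at 1.28, 2.3 and 1.15 TPM in the *Lysm-Cre; Ampkα1fl/fl* mice. *Lyz1* was at 40.6, 43.3 and 40.7 TPM in the controls and at 35.6, 23.2 and 22 TPM in the *Lysm-Cre; Ampkα1fl/fl* mice. The order of levels was thus *Lyz2* in controls, *Lyz1* in controls, *Lyz1* in *Lysm-Cre; Ampkα1fl/fl* mice and *Lyz2* in *Lysm-Cre; Ampkα1fl/fl* mice, with no overlap between neighbours in this order. The narrowest step was between *Lyz1* in the lowest control (40.6 TPM) and in *Lysm-Cre; Ampkα1fl/fl* mouse 1 (35.6 TPM), a gap smaller than the SD of the *Lysm-Cre; Ampkα1fl/fl* group (7.55 TPM).

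*Lyz2* transcripts outnumbered those of *Lyz1* 26.1, 26 and 27.3 times in the controls. In the *Lysm-Cre; Ampkα1fl/fl* mice the ratio was turned around, and *Lyz1* exceeded *Lyz2* 27.8, 10.1 and 19.1 times. Ranked by mean TPM among 18099 genes, *Lyz2* moved from place 143 in the controls to place 12956, and *Lyz1* from place 3676 to place 5335. Their summed level was 1099.7, 1171 and 1153 TPM in the controls and 36.9, 25.5 and 23.1 TPM in the *Lysm-Cre; Ampkα1fl/fl* mice. The remaining lysozyme RNA was therefore 2.5% of the control level, and nearly all of it was counted to *Lyz1*.

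As a share of the reads of both genes, *Lyz1* made up 4.68% (exact Clopper-Pearson 95% interval 4.22 to 5.17), 4.7% (4.26 to 5.19) and 4.5% (4.04 to 4.98) in the controls. In the *Lysm-Cre; Ampkα1fl/fl* mice it made up 97.3% (94.9 to 98.8), 92.9% (88.5 to 95.9) and 96.1% (92.5 to 98.3). This share does not depend on how libraries are scaled. The group means were 4.63% ± 0.11 and 95.4% ± 2.27 (SD, n = 3 each).

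Because the genes share sequence, their read numbers were also set against each other. In the controls 4.91, 4.94 and 4.71 *Lyz1* reads were counted per 100 *Lyz2* reads, 4.85 over the group. In the *Lysm-Cre; Ampkα1fl/fl* mice, where 715 *Lyz1* reads stood beside 32 *Lyz2* reads in all, 2.79, 7.69 and 4.06 *Lyz2* reads were counted per 100 *Lyz1* reads, 4.48 over the group. The fall in mean *Lyz1* reads, 126, equalled 1.68% of the fall in mean *Lyz2* reads, 7499. *Lyz1* reads thus persisted where *Lyz2* was nearly gone. Whether any read of one gene was counted to the other was not tested, since the deposited values hold no positions of reads along the transcripts.

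Other members of the lysozyme family were near zero in both groups. *Lyzl4*, a lysozyme-like gene of the testis, had between 1 and 4 reads in every library, *Lalba*, the α-lactalbumin gene of milk, between 0 and 4, and *Spaca5*, a sperm acrosome gene, 0. *Lyg2*, which encodes a goose-type lysozyme, had 0, 19 and 19 reads in the controls and 1, 19 and 26 in the *Lysm-Cre; Ampkα1fl/fl* mice, a log2 fold change of 0.26 with an adjusted p of 0.95 in edgeR (standard error 1.14). None of them came near the level of *Lyz1*. *Lyzl1*, *Lyzl6*, *Spaca3* and *Lyg1* were not analysed here. Of 13 listed markers of Paneth cells, the known site of *Lyz1*, only 2 were measured, *Mmp7* and *Reg3g*. Both were at the floor, with at most 1 read per library. The other listed markers were not analysed here.

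The next question was whether other genes beside the Cre insertion moved with *Lyz1*. Of the 10 protein-coding genes on each side of the pair, 18 were in the table and 14 had enough reads to be compared. Of these, 1 passed the edgeR quasi-likelihood test at an adjusted p below 0.05 (*Cpm*, lower) and 7 had a log2 fold change below 0. Over all genes 0.898% passed (128 genes, 81 lower and 47 higher). DESeq2 also called 1 neighbour, beside 680 of all genes compared. At an unadjusted p below 0.05 there were 3 of the 14, against 2071 (14.5%) of all genes compared.

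*Cpm*, which encodes carboxypeptidase M, a membrane enzyme known from maturing macrophages, lies 336.6 kb from the pair at chr10:117629500-117687352. It had 3689, 3475 and 3603 reads in the controls and 1275, 1645 and 1588 in the *Lysm-Cre; Ampkα1fl/fl* mice. The mean fell from 194 ± 3.93 to 80.4 ± 12.2 CPM (SD, n = 3 each), which is -1.27 on the log2 scale with a standard error of 0.11. Its edgeR adjusted p was 0.0126, and 0.0189 in the fit with a replicate block. Without control 1 or control 2 the adjusted p was 0.0694 and 0.084.

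The 5 genes compared that lie closer to the pair than *Cpm* had log2 fold changes between -0.02 and 0.04. The nearest ones compared, named after their values were seen, were *Cpsf6* at 51.8 kb (a factor of mRNA 3' end formation, log2 fold change 0.03, edgeR adjusted p = 0.814) and *Yeats4* at 53.0 kb (a chromatin reader, 0.04, adjusted p = 0.857). Apart from *Cpm*, the 13 neighbours compared had log2 fold changes from -0.43 (*Myrfl*, 2 to 31 reads in the controls) to 0.50 (*Kcnmb4*). *9530003J23Rik* and *Iltifb*, which the annotation also places there, were not analysed here. Within 5 Mb of *Lyz2*, 1 of 44 genes was called (2.27%), and within 10 Mb 1 of 83 (1.20%), in both cases *Cpm*. The median log2 fold change within 5 Mb was 0.02, against 0 over all genes.

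**Figure D3:**
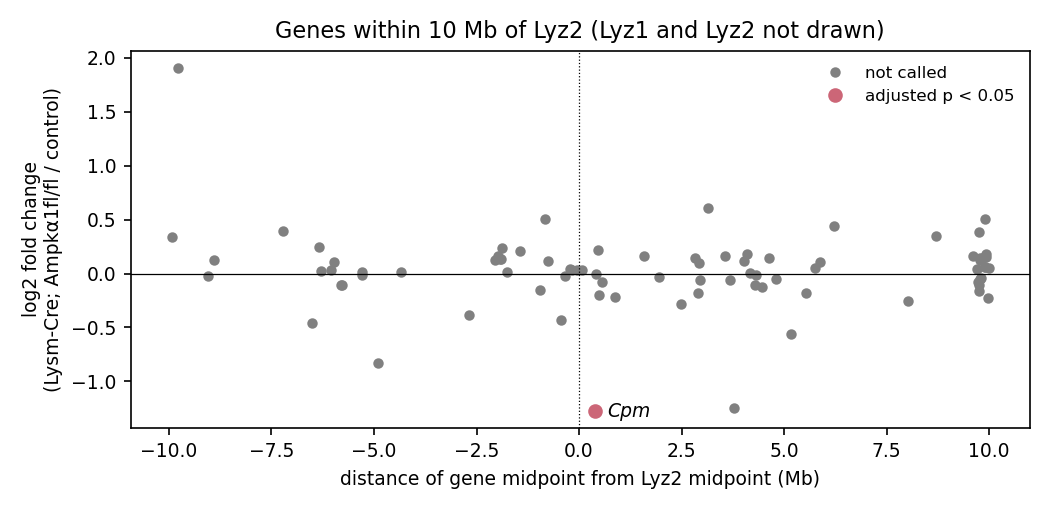
Log2 fold change (*Lysm-Cre; Ampkα1fl/fl* over control) of the 83 genes compared within 10 Mb of *Lyz2*, by the distance of each gene's midpoint in Mb. The lysozyme pair is not drawn, and the single gene with an adjusted p below 0.05, *Cpm* (-1.27), is marked. Most genes near the pair lie close to 0.

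The sample was checked for the cells that make lysozyme. All 20 genes of a list of macrophage identity genes were expressed, and none passed the edgeR test, while 11 had an unadjusted p below 0.05, 9 of them lower in the *Lysm-Cre; Ampkα1fl/fl* mice, beside 14.5% of all genes compared at that p in either direction. DESeq2 called 5 of the 20 (*Adgre1*, *Cd163*, *Csf1r* and *Mrc1*, lower, and *Lgals3*, higher), beside 680 of all genes compared. In the controls *Lyz2* stood above every one of them, the highest being *C1qb* with 393 TPM. In the *Lysm-Cre; Ampkα1fl/fl* mice all 20 stood above *Lyz2*, down to *Cd163* with 7.08 TPM. *Lyz1* kept its place, with 12 of the 20 above it in either group.

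The complement genes *C1qb*, *C1qc* and *C1qa*, the most abundant of the list, had log2 fold changes of -0.18, -0.26 and -0.24 (edgeR adjusted p = 0.349, 0.33 and 0.264). The list ranged from -0.83 (*Mrc1*) to 0.42 (*Lgals3*) with a median of -0.26, and 2 of its genes lay below the -0.64 of *Lyz1*. Summed over the list, the level was 2710.1, 2750.2 and 2644 TPM in the controls and 2581, 2498 and 2067 TPM in the *Lysm-Cre; Ampkα1fl/fl* mice, 88.2% of control. In 9 of the 20 genes every *Lysm-Cre; Ampkα1fl/fl* library lay below every control, and in 2 every one lay above, beside 11.4% of all genes compared for the lower direction and 20.4% for either. *Lyz2* was far outside this range, and *Lyz1* was near its lower end.

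**Figure D4:**
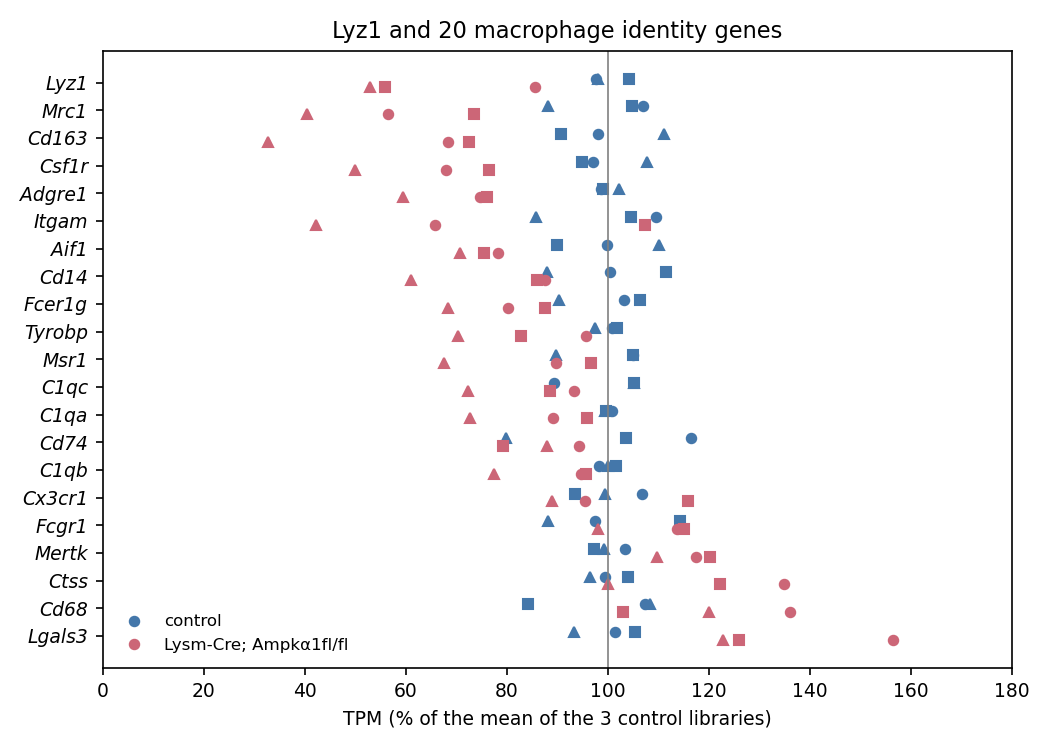
*Lyz1* and the 20 macrophage identity genes in each library, as TPM in % of the mean of the 3 controls (vertical line at 100). Circles, squares and triangles are mice 1, 2 and 3, blue for controls and red for *Lysm-Cre; Ampkα1fl/fl* mice. *Lyz1* lies among the lower genes of the list, next to *Mrc1*, *Cd163* and *Csf1r*, while *Cd68* and *Lgals3* lie on the other side of 100.

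How far the lower *Lyz1* level went along with that of macrophage genes depended on the gene chosen as the measure. The genes used here besides the list were named after their values were seen. Per 100 TPM of the list, *Lyz1* was at 1.5, 1.57 and 1.54 in the controls and at 1.38, 0.928 and 1.06 in the *Lysm-Cre; Ampkα1fl/fl* mice, 73.1% of control without overlap. Per 100 TPM of *Cd68*, a lysosomal protein of phagocytes, it was at 52.8% of control, again without overlap. *Cd68* itself had a log2 fold change of 0.25 (edgeR adjusted p = 0.459), which lowers this ratio. Since *Lyz1* was chosen on this contrast, nothing is read from the lack of overlap in either ratio.

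Relative to *Csf1r* and *Adgre1*, 2 genes of the macrophage surface that were themselves lower, the groups overlapped. A ratio to a gene that fell about as much as *Lyz1* lies near 100% by that choice, so nothing is read from this overlap. Per 100 TPM of *Csf1r*, the receptor for the macrophage growth factor CSF-1, *Lyz1* was at 29.9, 32.6 and 26.9 in the controls and at 37.4, 21.7 and 31.4 in the *Lysm-Cre; Ampkα1fl/fl* mice (101% of control). Per 100 TPM of *Adgre1*, which encodes F4/80, it was at 59, 62.6 and 57.1 against 68.3, 43.7 and 53 (92.3%). By contrast, *Lyz2* per 100 TPM of the list was at 0.162% of control. In the edgeR test itself *Csf1r* had a log2 fold change of -0.63 (adjusted p = 0.0933) and *Adgre1* of -0.52 (adjusted p = 0.0508). The part of macrophage content in the *Lyz1* difference was not tested.

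In the lists of monocyte and dendritic cell genes, 1 gene each passed the edgeR test, beside 0.898% of all genes compared. Among 11 monocyte genes compared, *F13a1*, the coagulation factor XIII subunit of monocytes and macrophages, fell from 3388, 3592 and 2889 reads to 1571, 1690 and 998 (log2 fold change -1.23, edgeR adjusted p = 0.0456, or 0.021 with the replicate block). Among 9 dendritic cell genes, *Clec10a*, a lectin also made by macrophages, fell from 462, 457 and 497 reads to 229, 195 and 152 (-1.32, edgeR adjusted p = 0.0174, or 0.0525 with the replicate block). The call of *F13a1* was lost without any one of the controls or *Lysm-Cre; Ampkα1fl/fl* mouse 1 (adjusted p up to 0.194), and so was that of *Clec10a* (up to 0.0985). At an unadjusted p below 0.05 in edgeR there were 4 monocyte genes (3 lower) and 2 dendritic cell genes (2 lower), beside 14.5% of all genes. The medians of these lists were -0.06 and -0.05.

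Of 12 neutrophil genes compared, 0 passed the edgeR test, 0 had an unadjusted p below 0.05, and DESeq2 called 0. Over all genes compared, these were 0.898%, 14.5% and 680 genes. *S100a8*, *S100a9* and *Ngp*, abundant proteins of neutrophils, had log2 fold changes of 0.65, 0.83 and 0.49 (edgeR adjusted p = 0.834, 0.777 and 0.915). Their list summed to 124, 369 and 32 TPM in the controls and to 366, 429.6 and 55.4 TPM in the *Lysm-Cre; Ampkα1fl/fl* mice, so the groups overlapped, with SDs of 174 and 200.3 TPM. The part of neutrophil content in the lysozyme values was not tested.

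Lysozyme is one of several antimicrobial products of phagocytes. Of 17 genes for other such products compared, 0 passed the edgeR test and 2 had an unadjusted p below 0.05 (14.5% of all genes). DESeq2 called 1, beside 680 of all genes compared. This was *Mpeg1*, which encodes a pore-forming protein and had a log2 fold change of 0.57 (edgeR adjusted p = 0.141). *Cyba*, a subunit of the phagocyte oxidase and the most abundant of the list, had a log2 fold change of -0.02 (adjusted p = 0.955), and the list median was 0.3. Several genes of this list, among them *S100a8*, *S100a9* and *Ngp*, were also in the neutrophil list, so these lists are not independent.

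Transcription factors known to act on myeloid promoters were set beside the sequence matches given above. Of 14 compared, 0 passed the edgeR test and 5 had an unadjusted p below 0.05 (3 of them lower), beside 14.5% of all genes. DESeq2 called 3, among them *Cebpa*, lower, and *Runx1*, higher, beside 680 of all genes compared. *Ets2* and *Klf4*, among the most abundant ones, had log2 fold changes of 0.16 and -0.27 (edgeR adjusted p = 0.399 and 0.161). *Spi1*, which encodes PU.1, had -0.34 (adjusted p = 0.221) and *Cebpa*, which encodes C/EBPα, -0.59 (adjusted p = 0.0914). Others went the other way, with 0.42 for *Runx1* (adjusted p = 0.187), 0.16 for *Cebpd* and 0.03 for *Cebpb*. These genes were named after their values were seen. Of the 14, 9 had a log2 fold change below 0, and the list median was -0.05.

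The remaining tissue was described in the same way. Tendon genes were abundant in all libraries, and of 10 compared only *Dcn*, the proteoglycan decorin, passed (log2 fold change -0.45, edgeR adjusted p = 0.0301, or 0.0611 with the replicate block). Over all genes 0.898% passed. Skeletal muscle genes summed to 342, 1066 and 5624 TPM in the controls and to 5742, 2048 and 16803 TPM in the *Lysm-Cre; Ampkα1fl/fl* mice, with 0 of 10 called by edgeR, 0 at an unadjusted p below 0.05, and log2 fold changes of 1.78 for *Acta1*, 1.81 for *Mylpf* and 1.93 for *Tnnt3*. The libraries thus differed in muscle content, and its part in the lysozyme values was not tested. The library totals ranged from 18076805 to 19479880 reads, and the 10 most abundant genes took 17.2% to 18.4% of the reads.

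The targeted gene *Prkaa1*, which encodes AMPKα1, was counted at 740, 688 and 690 reads in control tendons and 626, 751 and 652 in those with Cre. The log2 fold change was -0.08 with an adjusted p of 0.744 in edgeR (standard error 0.09). Counts over the whole gene in whole tissue thus overlapped between the groups.

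Genes whose level followed that of *Lyz2* or *Lyz1* most closely over the 6 libraries were listed by Pearson's r of log2(CPM + 0.5), as a description. For *Lyz2* these were *Gm21451* (r = 0.9985), *Unc5a* (0.996), *Ehd2* (0.9957), *Gpr34* (0.9956) and *Plac9b* (0.9948). All have a step between the groups that is wide beside the spread within them. *Ehd2* had 395 ± 6.75 and 315 ± 3.96 CPM, and *Plac9b* 109 ± 12.2 and 20.1 ± 2.8 CPM (SD, n = 3 each). For *Lyz1* they were *Ezh2* (0.9834), *Olfr558* (0.9811), *Smc3* (0.9784), *Itm2b* (0.9781) and *Gm14322* (0.9769). These share the order of the single *Lysm-Cre; Ampkα1fl/fl* libraries with *Lyz1*, mouse 1 being the highest, as *Ezh2* with 483, 420 and 425 reads there and 495, 492 and 463 in the controls. None of these 10 genes was a member of the macrophage list. That list holds only 20 chosen genes, so this does not show which cells express the 10 genes. *Gm21451* and *Olfr558* belong to families of close relatives between which reads could have been split. Such relatives were not searched for among the other genes listed.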

How the data were processed

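RNA was extracted from whole tendon with TRIzol and sequenced on the BGISEQ platform. For 65053 RefSeq transcripts the authors deposited estimated counts, not normalized, and TPM values, scaled by the authors to transcript length and library. The submitters' processing notes name GRCm38.p6. Aligner, counting tool, read length and strand setting are not given in the sources used here. A further 20 columns (6 FPKM, 6 normalized counts and 8 averages) were not used.

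Estimated counts were summed per gene and rounded. Of 18099 genes, 18049 (99.72%) had a symbol in the RefSeq table of GRCm38.p6. Each lysozyme gene had 1 transcript. Counts were fitted with edgeR 4.0.16 in R 4.3.3 (TMM, filterByExpr, quasi-likelihood F test, Benjamini-Hochberg over 14261 genes, threshold 0.05), with DESeq2 1.42.0 as an alternative. P-values set the difference between the groups against the spread between 3 mice per group, which is estimated with information shared across genes. On simulated counts (14137 genes, 200 altered by 1 on the log2 scale), edgeR recovered 62% with 8.8% false calls, and DESeq2 74% with 24.9%. Standard errors of edgeR log2 fold changes were calculated back from its F statistic, as the absolute log2 fold change divided by the square root of F. Intervals were computed in scipy 1.17.1 at 95% and cover counting error only. Sequences were aligned in Biopython 1.88.

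The genes and the lists were chosen with earlier results of these data known. Genes were named by a rule: the lysozyme family, *Prkaa1*, each neighbour called, the called members of each list or otherwise the 3 with the highest mean TPM, and the 5 genes most like each lysozyme gene. Others are marked as named after their values were seen, and 1 gene that the rule names is not reported here. Replicate numbers come from the labels. Deviations of same-numbered libraries from their group means correlated at 0.184, 0.118 and 0.31, so the replicate block is given where it changed a call, although control 1 and *Lysm-Cre; Ampkα1fl/fl* mouse 2 correlated at 0.501.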

Additional observations from a re-analysis of the deposited data

How the results depend on the processing

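The levels of *Lyz2* and *Lyz1* as percent of control kept their direction under other scalings, the TPM values and curated transcripts alone. Leaving out each library in turn gave 0.111% to 0.158% for *Lyz2*, 53.7% to 69.7% for *Lyz1*, and a *Lyz1* share of 4.59% to 4.69% in the controls and 94.5% to 96.7% in the *Lysm-Cre; Ampkα1fl/fl* mice. By TPM the share in the controls was 3.64%, since TPM divides by transcript length. The calls across genes were less stable. Against 128 genes by edgeR, the replicate block gave 47 and DESeq2 680, and leaving out 1 library gave 8 to 276. The counts were 10, 8 and 24 without controls 1, 2 and 3, and 12, 276 and 60 without *Lysm-Cre; Ampkα1fl/fl* mice 1, 2 and 3. The macrophage list gave 1 gene (*Adgre1*) with no filter on low counts or with at least 10 reads in every library, 5 with DESeq2 and 0 to 1 without single libraries (*Mrc1*, without *Lysm-Cre; Ampkα1fl/fl* mouse 2). DESeq2 gave 2 genes of the monocyte list (*F13a1*, lower, and *Fn1*, higher), 1 antimicrobial gene and 3 regulators. Which cells of the tissue made *Fn1*, at 2116 TPM in the controls, was not tested. Neighbouring, monocyte, dendritic cell and regulator genes called were 0 to 1 each without single libraries. With the replicate block 0 dendritic cell genes were called, and the block changed no other list's call beyond that of *Dcn* given above. *Lyg2* turned to a log2 fold change of -0.33 without control 1 and of -0.36 without *Lysm-Cre; Ampkα1fl/fl* mouse 3, and ranged up to 0.81 without *Lysm-Cre; Ampkα1fl/fl* mouse 1. The adjusted p over all alternatives ranged from 4.16e-26 to 0.084 for *Cpm*, from 3.81e-10 to 0.194 for *F13a1*, from 2.51e-12 to 0.0985 for *Clec10a* and from 0.244 to 0.983 for *Prkaa1*. With DESeq2 these were the smallest values for the first 3 genes. The cause of these changes was not tested. With 8 to 15 *Lyz2* reads per *Lysm-Cre; Ampkα1fl/fl* library, the counting intervals of those libraries overlapped.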
